A study of Mus musculus with 8 samples.

Results

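The 41 cell cycle and proliferation genes described here were taken by symbol from a list that spans the cycle from the D-type cyclins to the spindle, with no threshold on a measured value. All 41 were among the 15521 genes of the table, all 41 were above 0 in each library, and all 41 were among the 11621 genes tested. They were measured by bulk RNA-seq in cultured mouse alveolar macrophages, the resident phagocytes of the lung airspaces. Cells had been recovered by bronchoalveolar lavage, purified by 2 h of adherence, and kept in medium with recombinant murine GM-CSF at 10 ng/ml, on which all 4 groups were held. The 4 groups of 2 libraries were Poly(I:C)+MSDC, Poly(I:C)+vehicle, MSDC, and vehicle. MSDC was given at 10 µM and the vehicle, DMSO, in its place, for 2 h before stimulation. Poly(I:C), a synthetic double-stranded RNA that mimics viral RNA, followed at 5 µg/mL for 24 h by the sample labels, or overnight by the series text. The sample details used here give no harvest time for the unstimulated groups. Whether time in culture and time with MSDC matched between stimulated and unstimulated groups is therefore not known. Compounds with code names that start in MSDC are ligands of the mitochondrial pyruvate carrier, and which of them was used is not in the labels. The labels give no strain, sex or age of the mice, and do not say whether the libraries of a group came from separate animals or cultures, so p-values measure the spread between these libraries, which may be technical.

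A cell enters the cycle when D-type cyclins, bound to CDK4 or CDK6, phosphorylate the retinoblastoma protein and release E2F factors, which switch on genes for DNA replication and nucleotide supply. CDT1 and CDC6 load the MCM helicase on origins, and later the cyclin B and CDK1 kinase, Aurora and Polo kinases and kinesins carry the cell through mitosis. Alveolar macrophages are known to renew themselves in the lung with little input from blood monocytes, and GM-CSF is a growth factor for them in culture.

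The cells carried a high level of cell cycle transcripts in every group. The median of the members' mean levels over the 8 libraries was 81.9 TPM (a level scaled for transcript length and to the same total in each library), against 9.74 TPM over the 14935 genes above 0 in a library. Pcna, the sliding clamp of DNA polymerases, was the highest member, with 612 and 624 TPM in Poly(I:C)+MSDC cells, 629 and 613 TPM in Poly(I:C)+vehicle cells, 596 and 597 TPM in MSDC cells, and 560.3 and 563 TPM in vehicle cells. Below it stood Rrm2, Birc5 and Ccnd3. Ccnd1 was the lowest member, from 0.50 to 5.03 TPM, and Cenpf, a kinetochore protein, the next lowest, from 6.53 to 8.11 TPM. Summed over the 41 genes, the level was 4052 and 4128 TPM in Poly(I:C)+MSDC cells, 3762 and 3691 TPM in Poly(I:C)+vehicle cells, 4042 and 3960 TPM in MSDC cells, and 3658 and 3664 TPM in vehicle cells. All 4 libraries with MSDC thus lay above all 4 without it. The sums of the licensing and fork, nucleotide supply, S phase regulator and mitotic genes did the same. That of the 9 cyclin and CDK genes did not, with 724 and 727 TPM in Poly(I:C)+MSDC cells against 753 and 747 TPM in Poly(I:C)+vehicle cells. It had 716 and 688 TPM in MSDC cells against 753 and 713 TPM in vehicle cells. In bulk RNA, more cycling cells and more RNA per cycling cell cannot be told apart.

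**Figure D1:**
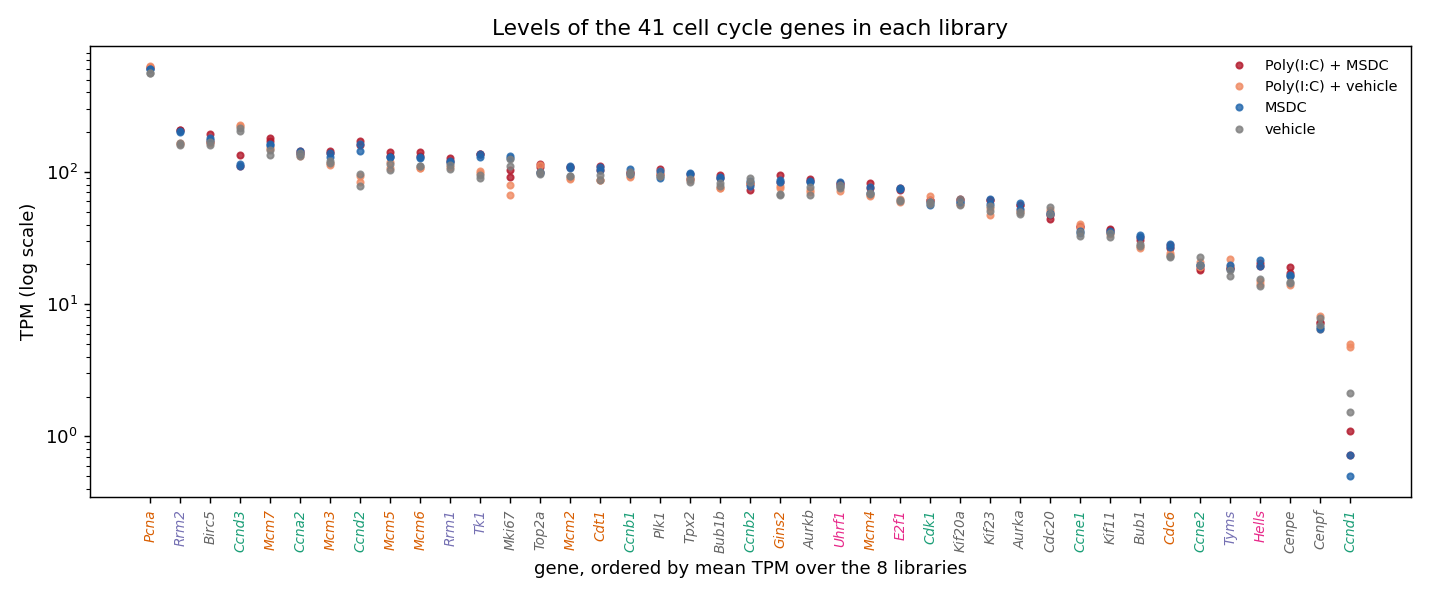
Level in TPM (log axis) of each of the 41 genes, ordered by mean, with 1 point per library and colour for the group. Gene names are coloured by role: green for cyclins and CDK, orange for origin licensing and the replication fork, violet for nucleotide supply, pink for S phase regulators and grey for mitosis. Pcna lies between 560.3 and 629 TPM and Ccnd1 between 0.50 and 5.03 TPM, and the spread between groups is largest for Ccnd1.

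The libraries held 28762425 to 29493223 estimated counts each, and a floor of 3 counts is 0.102 to 0.104 CPM (counts scaled to library size), which covers counting error only. All 14 alveolar macrophage markers and all 7 general macrophage markers were above 0 in every library. The alveolar list summed to 17589 to 18265 TPM in Poly(I:C)+MSDC cells, 15627 to 15919 TPM in Poly(I:C)+vehicle cells, 17723 to 18041 TPM in MSDC cells and 18124 to 18303 TPM in vehicle cells, higher with MSDC under Poly(I:C) and slightly lower without it. That sum hides opposite shifts of single markers. Marco, Krt79, Mrc1, Fabp4, Ear2, Il18, Abcg1 and Lpl were higher in every MSDC library than in every other library. Car4, Chil3, Itgax, Pparg and Plet1 were lower in the same way, and Siglecf overlapped. The general list summed to 39487 to 40959 TPM in Poly(I:C)+MSDC cells, 45566 to 46225 TPM in Poly(I:C)+vehicle cells, 38191 to 38530 TPM in MSDC cells, and 46519 to 46741 TPM in vehicle cells. Most of that sum was Lyz2, lower in each MSDC library, while Adgre1 and Mertk of the same list were higher in each (Adgre1 at 101 to 108 TPM in the MSDC libraries against 60.7 to 68.5 TPM in the others). Among markers of other cells, Cd3e, Cd3d, Cd79a, Flt3 and Sftpc were each at 0 to 2 counts in every library, but other members of these and further lists were present. Sums lower with MSDC in both settings were those of 5 lists. The fibroblast and endothelial list (8 genes, 4 above 0 in all libraries) had 23.3 to 24.5 TPM in Poly(I:C)+MSDC cells, 26.4 to 29.4 TPM in Poly(I:C)+vehicle cells, 30.2 to 31.5 TPM in MSDC cells and 43.6 to 45.1 TPM in vehicle cells. The epithelial list (7 genes, 5 above 0 in all libraries, most of its level from Cdh1) had 21.7 to 22.9 TPM in Poly(I:C)+MSDC cells, 22.98 to 24.6 TPM in Poly(I:C)+vehicle cells, 27.4 to 30.4 TPM in MSDC cells and 34.6 to 37.3 TPM in vehicle cells. The T cell list (6 of 8 genes in the table, 2 above 0 in all libraries, most of its level from Il7r) had 18.6 to 19.98 TPM in Poly(I:C)+MSDC cells, 35.4 to 35.9 TPM in Poly(I:C)+vehicle cells, 15.8 to 15.95 TPM in MSDC cells and 23.6 to 26.7 TPM in vehicle cells. The dendritic cell list (5 of 6 genes in the table, 2 above 0 in all libraries, Clec9a among them) had 3.48 to 4.24 TPM in Poly(I:C)+MSDC cells, 6.60 to 8.22 TPM in Poly(I:C)+vehicle cells, 2.29 to 2.90 TPM in MSDC cells and 4.51 to 5.34 TPM in vehicle cells. The monocyte list (4 of 5 genes in the table, 2 above 0 in all libraries) had 0.80 to 1.33 TPM in Poly(I:C)+MSDC cells, 3.18 to 3.56 TPM in Poly(I:C)+vehicle cells, 0.48 to 0.72 TPM in MSDC cells and 2.28 to 2.50 TPM in vehicle cells. The neutrophil list (5 of 8 genes in the table, 4 above 0 in all libraries, most of its level from S100a8) went the other way, with 33.4 to 44.1 TPM in Poly(I:C)+MSDC cells, 30.01 to 30.75 TPM in Poly(I:C)+vehicle cells, 39.8 to 48.7 TPM in MSDC cells and 27.9 to 34.2 TPM in vehicle cells. The part of these lists in the changes below was not tested.

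Changes were tested on counts with edgeR's quasi-likelihood test, in 1 fit of all 8 libraries, with p-values adjusted by Benjamini-Hochberg over all 11621 genes and calls made under 0.05. Log2 fold changes and their standard errors (SE) come from that fit, while levels are given in TPM.

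The first question was what MSDC alone did to these genes in unstimulated cells. Among the members, 8 of 10 origin licensing and replication fork genes, 2 of 4 nucleotide supply genes and 3 of 15 mitotic genes were called higher in MSDC cells, while Ccnd2 was called higher and Ccnd1 and Ccnd3 lower. The role groups were not tested against each other. Of the 41 members, 16 were called higher (11.1% of all genes tested were) and 2 lower (12.4% of all genes tested were). The median log2 fold change of the members was 0.17 and 35 of 41 were positive, against a median of 0.00 over all genes tested. With Poly(I:C) present, MSDC gave the same counts, 16 higher (12.5% of all genes tested) and 2 lower (13.6% of all genes tested), with a member median of 0.12 and 29 of 41 positive. Of the 16 higher in each setting, 12 were shared, and both lower genes were. By TPM, 26 members lay higher in both Poly(I:C)+MSDC libraries than in both Poly(I:C)+vehicle libraries (34.6% of all genes did) and 5 lower (27.5% did). Between MSDC and vehicle libraries 27 lay higher in this way (24.5% of all genes did) and 4 lower (31.5% did). The 2 MSDC contrasts use separate control libraries.

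The D-type cyclins, the partners of CDK4 and CDK6, moved farthest. Ccnd2 had 160.4 and 171 TPM in Poly(I:C)+MSDC cells, 84.2 and 92.8 TPM in Poly(I:C)+vehicle cells, 163 and 144 TPM in MSDC cells, and 96.2 and 79.0 TPM in vehicle cells. Every MSDC library lay above every library without MSDC, by a log2 fold change of 0.88 (SE 0.08, adjusted p = 5.98e-07) with Poly(I:C) and 0.84 (SE 0.08, adjusted p = 1.06e-06) without it. Ccnd3 ran the other way, with 134 and 112 TPM in Poly(I:C)+MSDC cells, 226 and 222 TPM in Poly(I:C)+vehicle cells, 111 and 115 TPM in MSDC cells, and 215 and 203 TPM in vehicle cells. Its 4 MSDC libraries lay below its 4 others, by -0.84 (SE 0.07, adjusted p = 2.6e-07) with Poly(I:C) and -0.87 (SE 0.07, adjusted p = 2.21e-07) without. Ccnd1, the third of the family, was a minor transcript, with 1.09 and 0.72 TPM in Poly(I:C)+MSDC cells, 4.78 and 5.03 TPM in Poly(I:C)+vehicle cells, 0.72 and 0.50 TPM in MSDC cells, and 2.13 and 1.54 TPM in vehicle cells. Its log2 fold change was -2.47 (SE 0.23, adjusted p = 5.98e-07) with Poly(I:C) and -1.56 (SE 0.26, adjusted p = 0.000337) without, so the highest Ccnd1 levels were in Poly(I:C)+vehicle cells and the MSDC libraries lay at or below 1.09 TPM. With limma on log2(TPM + 1), which understates changes of low genes, the Ccnd1 values were -1.64 and -0.81.

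Because Ccnd2 and Ccnd3 moved in opposite directions, their order was reversed. Ccnd2 made up 54.2 and 60.3% of summed D cyclin TPM in Poly(I:C)+MSDC cells, 26.7 and 29.1% in Poly(I:C)+vehicle cells, 59.4 and 55.5% in MSDC cells, and 30.7 and 27.8% in vehicle cells. Ccnd2 was thus the larger share in each MSDC library and the smaller one in each other library. The sum of the 3 genes was 295.8 and 283.3 TPM in Poly(I:C)+MSDC cells against 314.7 and 319.5 TPM in Poly(I:C)+vehicle cells, and 274.7 and 258.9 TPM in MSDC cells against 313.4 and 283.7 TPM in vehicle cells. All 6 of these D cyclin calls held under each of the 17 alternatives tried. Ccnd3 overlaps Bysl and a predicted gene in the RefSeq annotation, Ccnd2 a Rik transcript and Ccnd1 LTO1, and the sources used here do not say whether strand was used in counting.

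**Figure D2:**
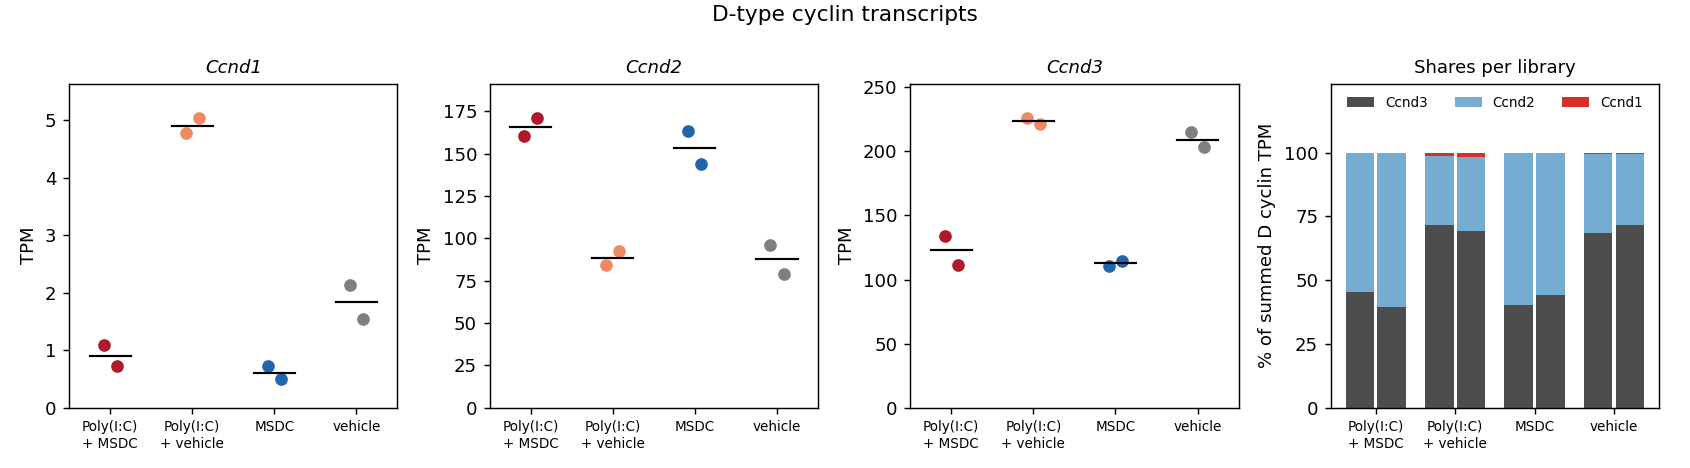
TPM of Ccnd1, Ccnd2 and Ccnd3 in each library (points, with the group mean as a line), and the share of each in their summed TPM per library (bars, 1 per library). Ccnd2 forms 54.2 to 60.3% of the sum in the MSDC libraries and 26.7 to 30.7% in the others.

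The other cyclins and the mitotic kinase Cdk1 did not pass the test with MSDC. Ccna2, the S phase and G2 cyclin, had 140.0 and 144 TPM in Poly(I:C)+MSDC cells, 140.3 and 133 TPM in Poly(I:C)+vehicle cells, 137 and 143 TPM in MSDC cells, and 139 and 133 TPM in vehicle cells. Its log2 fold change with MSDC was 0.02 (SE 0.06) with Poly(I:C) and 0.07 (SE 0.06) without, with 95% intervals of -0.11 to 0.15 and -0.06 to 0.20. Ccnb1, Ccnb2, Ccne1, Ccne2 and Cdk1 had MSDC log2 fold changes between -0.14 and 0.09 in both settings, and none was called.

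Of the 10 origin licensing and replication fork genes, 6 were called higher by MSDC with Poly(I:C) (12.5% of all genes tested were) and 8 without it (11.1% were). The 6 MCM genes encode the ring of the replicative helicase. Mcm6 had 133 and 141 TPM in Poly(I:C)+MSDC cells, 108 and 107 TPM in Poly(I:C)+vehicle cells, 131 and 127 TPM in MSDC cells, and 111 and 111 TPM in vehicle cells. Its MSDC libraries all lay above its others, by 0.32 (SE 0.06, adjusted p = 0.000837) with Poly(I:C) and 0.25 (SE 0.06, adjusted p = 0.00638) without. Mcm3 had 139.6 and 145 TPM in Poly(I:C)+MSDC cells, 117 and 114 TPM in Poly(I:C)+vehicle cells, 139 and 131 TPM in MSDC cells, and 117 and 120.5 TPM in vehicle cells, again without overlap, with log2 fold changes of 0.27 (SE 0.06, adjusted p = 0.00387) and 0.21 (SE 0.06, adjusted p = 0.0224). Mcm2 and Mcm5 were called in both settings, at 0.25 and 0.26 with Poly(I:C) and 0.25 and 0.26 without. Mcm4 was called only with Poly(I:C), at 0.23 (SE 0.07) against 0.13 (SE 0.07) without, and Mcm7 only without it, at 0.23 (SE 0.07) against 0.18 (SE 0.07) with it. Neither difference between settings passed the interaction test. Summed over the 6 MCM genes, the level was 760.6 and 798.9 TPM in Poly(I:C)+MSDC cells against 634.6 and 650.3 TPM in Poly(I:C)+vehicle cells, and 752.1 and 725.2 TPM in MSDC cells against 628.0 and 654.3 TPM in vehicle cells.

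The loading factor Cdt1 was higher with MSDC in both settings, at 0.27 (SE 0.07, adjusted p = 0.0112) with Poly(I:C) and 0.25 (SE 0.07, adjusted p = 0.0169) without. It had 103 and 110.3 TPM in Poly(I:C)+MSDC cells, 86.8 and 86.5 TPM in Poly(I:C)+vehicle cells, 109.5 and 104 TPM in MSDC cells, and 87.2 and 95.5 TPM in vehicle cells. Cdc6, its partner in loading, and Gins2, a subunit of the GINS complex that joins MCM in the active helicase, were called without Poly(I:C), at 0.26 (SE 0.08, adjusted p = 0.0229) and 0.36 (SE 0.08, adjusted p = 0.00322). With Poly(I:C) they were at 0.14 (SE 0.08, adjusted p = 0.234) and 0.18 (SE 0.08, adjusted p = 0.123). Pcna was called in neither setting, at -0.04 (SE 0.06) and 0.11 (SE 0.06).

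Of the 4 nucleotide supply genes, Rrm2 and Tk1 were called higher in both settings (12.5% of all genes tested were with Poly(I:C) and 11.1% without). Rrm2, the regulated subunit of ribonucleotide reductase, had 208 and 208 TPM in Poly(I:C)+MSDC cells, 167 and 164 TPM in Poly(I:C)+vehicle cells, 202 and 205 TPM in MSDC cells, and 165 and 161 TPM in vehicle cells. The MSDC libraries did not overlap with the others, and the log2 fold change was 0.30 (SE 0.06, adjusted p = 0.00114) with Poly(I:C) and 0.35 (SE 0.06, adjusted p = 0.000283) without. Tk1, the cytosolic thymidine kinase of S phase, had 137 and 136 TPM in Poly(I:C)+MSDC cells, 101 and 98.5 TPM in Poly(I:C)+vehicle cells, 130.4 and 136 TPM in MSDC cells, and 89.8 and 94.9 TPM in vehicle cells. It showed the largest rise among members outside the D cyclins in both settings, at 0.42 (SE 0.07, adjusted p = 0.000252) with Poly(I:C) and 0.56 (SE 0.07, adjusted p = 1.5e-05) without. Tk1 overlaps Afmid in the annotation. Rrm1, the large reductase subunit, was at 0.11 (SE 0.06) and 0.16 (SE 0.06), and Tyms, thymidylate synthase, at -0.17 (SE 0.08) and 0.17 (SE 0.08), with no call. Tyms counts were not whole in any of the 8 libraries, so its level is less certain than that of members with whole counts.

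Of the 3 S phase regulators of transcription and chromatin, E2f1 and Hells were called higher in both settings (12.5% of all genes tested were with Poly(I:C) and 11.1% without). E2f1, the factor that activates replication genes, had 73.3 and 75.3 TPM in Poly(I:C)+MSDC cells, 59.4 and 62.9 TPM in Poly(I:C)+vehicle cells, 74.7 and 75.0 TPM in MSDC cells, and 61.2 and 60.9 TPM in vehicle cells, and its log2 fold change was 0.25 (SE 0.06, adjusted p = 0.00858) with Poly(I:C) and 0.32 (SE 0.06, adjusted p = 0.00137) without. Hells, a chromatin remodeller needed for DNA methylation, had 19.4 and 20.4 TPM in Poly(I:C)+MSDC cells, 14.3 and 15.0 TPM in Poly(I:C)+vehicle cells, 21.6 and 19.6 TPM in MSDC cells, and 13.6 and 15.4 TPM in vehicle cells, with 0.31 (SE 0.09, adjusted p = 0.0133) and 0.45 (SE 0.09, adjusted p = 0.000982). For both genes the MSDC libraries lay above the others. Hells counts were not whole in 5 libraries. Uhrf1, which recruits the maintenance DNA methyltransferase, was at 0.11 (SE 0.06) and 0.09 (SE 0.06), with no call.

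Of the 15 mitotic genes, 5 were called higher by MSDC with Poly(I:C) (12.5% of all genes tested were) and 3 without it (11.1% were). Bub1b, the checkpoint protein BUBR1, had 89.9 and 94.7 TPM in Poly(I:C)+MSDC cells, 75.3 and 75.7 TPM in Poly(I:C)+vehicle cells, 91.3 and 90.5 TPM in MSDC cells, and 82.6 and 78.6 TPM in vehicle cells, and was called in both settings, at 0.26 (SE 0.06, adjusted p = 0.00433) and 0.20 (SE 0.06, adjusted p = 0.0233). Aurkb, the kinase of the chromosomal passenger complex, was also called in both, at 0.24 (SE 0.08, adjusted p = 0.032) and 0.25 (SE 0.08, adjusted p = 0.0297). Bub1, a checkpoint kinase, was called only without Poly(I:C), at 0.24 (SE 0.07), and Mki67, Cenpe and Kif23 only with it, at 0.38 (SE 0.08), 0.24 (SE 0.08) and 0.26 (SE 0.08). Cenpe and Kif23 are kinesins of chromosome alignment and of cytokinesis. The other 9, Top2a, Aurka, Plk1, Birc5, Cdc20, Cenpf, Kif11, Kif20a and Tpx2, were called in neither, with log2 fold changes between -0.18 and 0.21. Top2a, the topoisomerase that untangles sister chromatids, had 114 and 108 TPM in Poly(I:C)+MSDC cells, against 112 and 99.2 TPM in Poly(I:C)+vehicle cells, and 99.1 and 100.04 TPM in MSDC cells, against 99.8 and 96.0 TPM in vehicle cells.

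Without Poly(I:C), 7 of the 18 called members (Ccnd1, Ccnd2, Ccnd3, Rrm2, Tk1, E2f1 and Hells) were called under each of the 17 alternatives, and 11 lost the call when 1 library was left out. Those were MSDC replicate 1 or 2 (6 called higher in each of these fits), vehicle replicate 1 (10 called higher), and for Bub1b and Aurkb also a Poly(I:C) library, with log2 fold changes of 0.14 to 0.32 in the fits that lost the call. With Poly(I:C), 8 of 18 (Ccnd1, Ccnd2, Ccnd3, Mcm3, Mcm6, Rrm2, Tk1 and Bub1b) held under all 17. The other 10 lost it without Poly(I:C)+vehicle replicate 1 (9 called higher) or 2 (10), or Poly(I:C)+MSDC replicate 1 or 2 (9 without replicate 2), and for Aurkb and Cenpe also without an MSDC library, at 0.13 to 0.32.

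**Figure D3:**
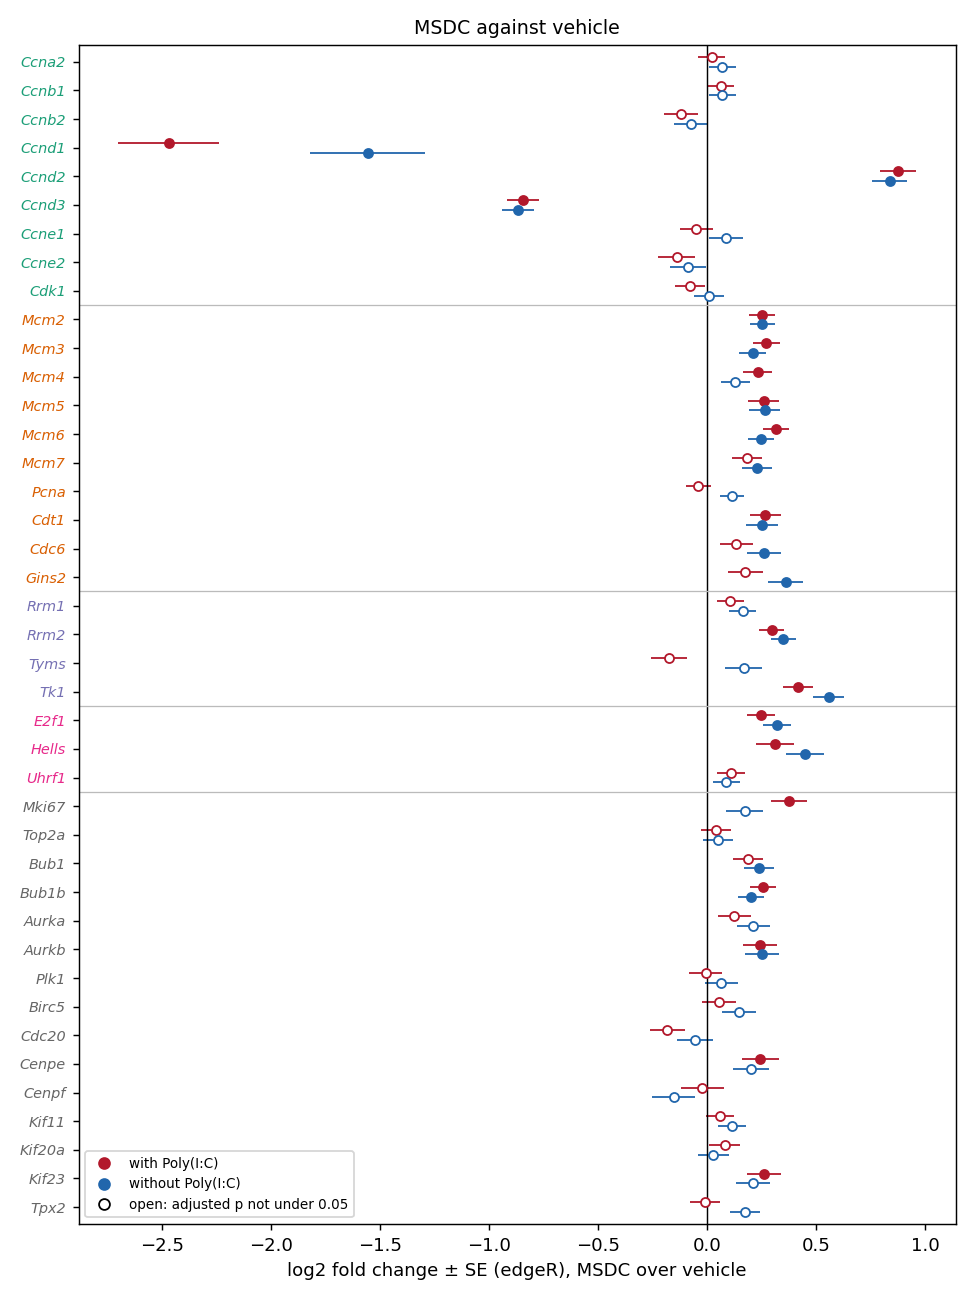
Log2 fold change of each gene with MSDC over vehicle, with its standard error (bars) derived from the edgeR test, with Poly(I:C) in red above and without it in blue below. Filled points have an adjusted p under 0.05. Genes are grouped by role with the same name colours as in the plot of levels. The D cyclins stand at -2.47 to 0.88, and called replication genes between 0.21 and 0.56.

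Promoters of 5 members called with MSDC in at least 1 setting are shown, because cell cycle genes are known for 2 kinds of promoter, with E2F sites in many replication genes and a CCAAT box paired with a CHR (cell cycle genes homology region) element in many mitotic genes. Of the 41 genes, 32 had a window in the RefSeq promoter table of GRCm38.p6, from 250 bases before the start to 50 after it. In the sequences below, capitals mark exact matches on either strand to CCAAT, to TTTGAA or TTTAAA (CHR), or to TTTGGCGC, TTTCGCGC, TTTCCCGC or GGCGGGAA (E2F). The last pair of E2F words partly overlap when read on opposite strands. Mcm6 lies at chr1:128359656-128359955 (minus strand), Hells at chr19:38930740-38931039 (plus strand), Rrm2 at chr12:24708004-24708303 (plus strand), Bub1b at chr2:118597961-118598260 (plus strand) and Mki67 at chr7:135716330-135716629 (minus strand).
Mcm6: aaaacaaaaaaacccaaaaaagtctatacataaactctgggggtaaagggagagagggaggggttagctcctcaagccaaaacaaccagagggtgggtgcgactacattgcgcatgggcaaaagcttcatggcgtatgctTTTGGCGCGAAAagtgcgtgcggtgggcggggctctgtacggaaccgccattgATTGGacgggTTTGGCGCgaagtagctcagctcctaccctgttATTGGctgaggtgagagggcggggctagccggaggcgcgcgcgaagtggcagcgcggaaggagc
Hells: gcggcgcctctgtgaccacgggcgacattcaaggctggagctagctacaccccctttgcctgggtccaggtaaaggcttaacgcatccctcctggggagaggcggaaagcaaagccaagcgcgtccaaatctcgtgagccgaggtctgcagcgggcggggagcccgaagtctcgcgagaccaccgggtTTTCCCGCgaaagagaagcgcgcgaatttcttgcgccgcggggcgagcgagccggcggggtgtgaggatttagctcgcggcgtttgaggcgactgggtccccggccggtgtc
Rrm2: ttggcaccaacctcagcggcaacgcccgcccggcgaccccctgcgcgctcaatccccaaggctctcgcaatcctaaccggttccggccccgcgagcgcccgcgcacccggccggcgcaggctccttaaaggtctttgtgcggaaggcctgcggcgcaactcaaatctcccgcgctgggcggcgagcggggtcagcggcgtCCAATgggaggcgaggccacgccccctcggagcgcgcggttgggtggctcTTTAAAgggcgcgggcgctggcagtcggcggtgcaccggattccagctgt
Bub1b: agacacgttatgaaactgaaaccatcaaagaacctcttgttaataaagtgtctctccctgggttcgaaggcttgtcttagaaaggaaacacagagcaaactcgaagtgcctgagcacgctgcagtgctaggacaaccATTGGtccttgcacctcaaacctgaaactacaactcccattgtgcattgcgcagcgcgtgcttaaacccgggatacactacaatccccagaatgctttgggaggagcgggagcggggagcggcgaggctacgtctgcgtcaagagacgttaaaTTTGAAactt
Mki67: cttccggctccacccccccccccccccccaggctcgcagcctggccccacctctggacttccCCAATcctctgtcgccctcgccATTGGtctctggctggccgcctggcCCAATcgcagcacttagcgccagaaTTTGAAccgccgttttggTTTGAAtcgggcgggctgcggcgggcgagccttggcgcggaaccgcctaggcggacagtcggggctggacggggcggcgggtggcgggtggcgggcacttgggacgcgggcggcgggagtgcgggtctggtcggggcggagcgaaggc

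Mcm6 held 2 E2F stretches, the first of them matched by a word on each strand, and 2 CCAAT boxes in reverse. Hells held 1 E2F word. Rrm2, Bub1b and Mki67 held CCAAT and CHR matches and no E2F word. Over the 32 genes, the E2F words occurred in 10 (31.2%), against 4.0% of all 27025 genes of the table. Among them were 6 of 8 licensing and fork genes and 0 of 12 mitotic genes. CHR matches occurred in 20 of 32 (62.5%, against 30.6% of all genes), including 11 of 12 mitotic and 2 of 8 licensing and fork genes. CCAAT occurred in 24 of 32 (75% against 41.1%), and both CCAAT and CHR in 17 (53.1% against 13.4%). The matches are a description of letters in these windows. Rrm2, Tk1 and Mcm2 were called with MSDC and held no E2F word. Both Bub1b, which was called, and Top2a, which was not, carried CHR and CCAAT. E2f1 was called too, but its window (chr2:154569377-154569676, minus strand) lies inside the gene. The RefSeq span of E2f1 begins on that strand at 154569892, and the sequence before that base was not searched. The Hells and Cdc6 windows also lie inside the spans of their genes.

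The second question was what Poly(I:C) did to the same genes. The counts of members called were near or below the shares of all genes, and Ccnd1 and Mki67 led the calls in vehicle. In vehicle, 4 of 41 were called higher (7.52% of all genes tested were) and 1 lower (4.1% of all genes tested were). In MSDC cells 0 were called higher (4.82% of all genes tested were) and 1 lower (1.5% of all genes tested were). By edgeR, 3 members had an unadjusted p under 0.05 there in either direction, and DESeq2 and limma on TPM called 0 members higher too. Member medians were 0.09 in vehicle and 0.04 in MSDC, against 0.00 for all genes in both.

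Mki67, which encodes the Ki-67 protein that coats mitotic chromosomes and is the usual stain for cycling cells, was the 1 member lower with Poly(I:C). It had 104 and 91.5 TPM in Poly(I:C)+MSDC cells, 79.9 and 67.1 TPM in Poly(I:C)+vehicle cells, 132 and 128 TPM in MSDC cells, and 124 and 110.3 TPM in vehicle cells. The Poly(I:C) libraries lay below the unstimulated ones within each drug group, at -0.41 (SE 0.08, adjusted p = 0.00551) in MSDC and -0.62 (SE 0.08, adjusted p = 0.000101) in vehicle. The vehicle call held under all 17 alternatives. In MSDC it was lost without MSDC replicate 1 (-0.41, adjusted p = 0.0534) and without Poly(I:C)+MSDC replicate 2 (-0.32, adjusted p = 0.122). The interaction for Mki67 was 0.20 (SE 0.12, adjusted p = 0.83).

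The other markers often read with Mki67 were not called lower with Poly(I:C). Top2a was at 0.16 (SE 0.07) in MSDC and 0.17 (SE 0.07) in vehicle, Ccna2 at 0.02 (SE 0.06) and 0.07 (SE 0.06), and Birc5, the survivin protein of the passenger complex, at 0.04 (SE 0.08) and 0.14 (SE 0.08). Their 95% intervals in vehicle were 0.02 to 0.31, -0.06 to 0.20 and -0.03 to 0.30, all above the interval of Mki67, -0.80 to -0.44. Of the 15 mitotic genes, 11 had a positive log2 fold change in each drug group.

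The 4 genes called higher with Poly(I:C) in vehicle were Ccnd1, Ccne1, Pcna and Tyms. Ccnd1 had 4.78 and 5.03 TPM in Poly(I:C)+vehicle cells, against 2.13 and 1.54 TPM in vehicle cells, a log2 fold change of 1.49 (SE 0.21, adjusted p = 0.000123), which held under all 17 alternatives. In MSDC it was at 0.57 (SE 0.29, adjusted p = 0.354). Ccne1, the cyclin that activates CDK2 at the start of S phase, had 37.8 and 40.3 TPM in Poly(I:C)+vehicle cells, against 35.2 and 32.6 TPM in vehicle cells, at 0.27 (SE 0.08, adjusted p = 0.0326). Tyms was at 0.32 (SE 0.08, adjusted p = 0.0195) and Pcna at 0.21 (SE 0.06, adjusted p = 0.0232). The last 3 were called in fewer settings: Ccne1 lost its call in 7 of the 8 fits without 1 library (all but vehicle replicate 1), Pcna in 6 (all but vehicle replicate 2 and Poly(I:C)+MSDC replicate 1), and Tyms in 2 (without vehicle replicate 2 or Poly(I:C)+vehicle replicate 1), with log2 fold changes of 0.17 to 0.29 where it was lost. With limma on TPM or a fit of the 2 groups alone, 1 member was called higher. By TPM, 12 members lay higher in both Poly(I:C)+vehicle libraries than in both vehicle libraries (17.7% of all genes did) and 10 lower (34.5% did). Between Poly(I:C)+MSDC and MSDC libraries 15 lay higher (24.3% of all genes did) and 3 lower (23.5% did). The median log2 fold change of all genes was 0.00 in both after TMM scaling, so directions are taken from the counts.

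**Figure D4:**
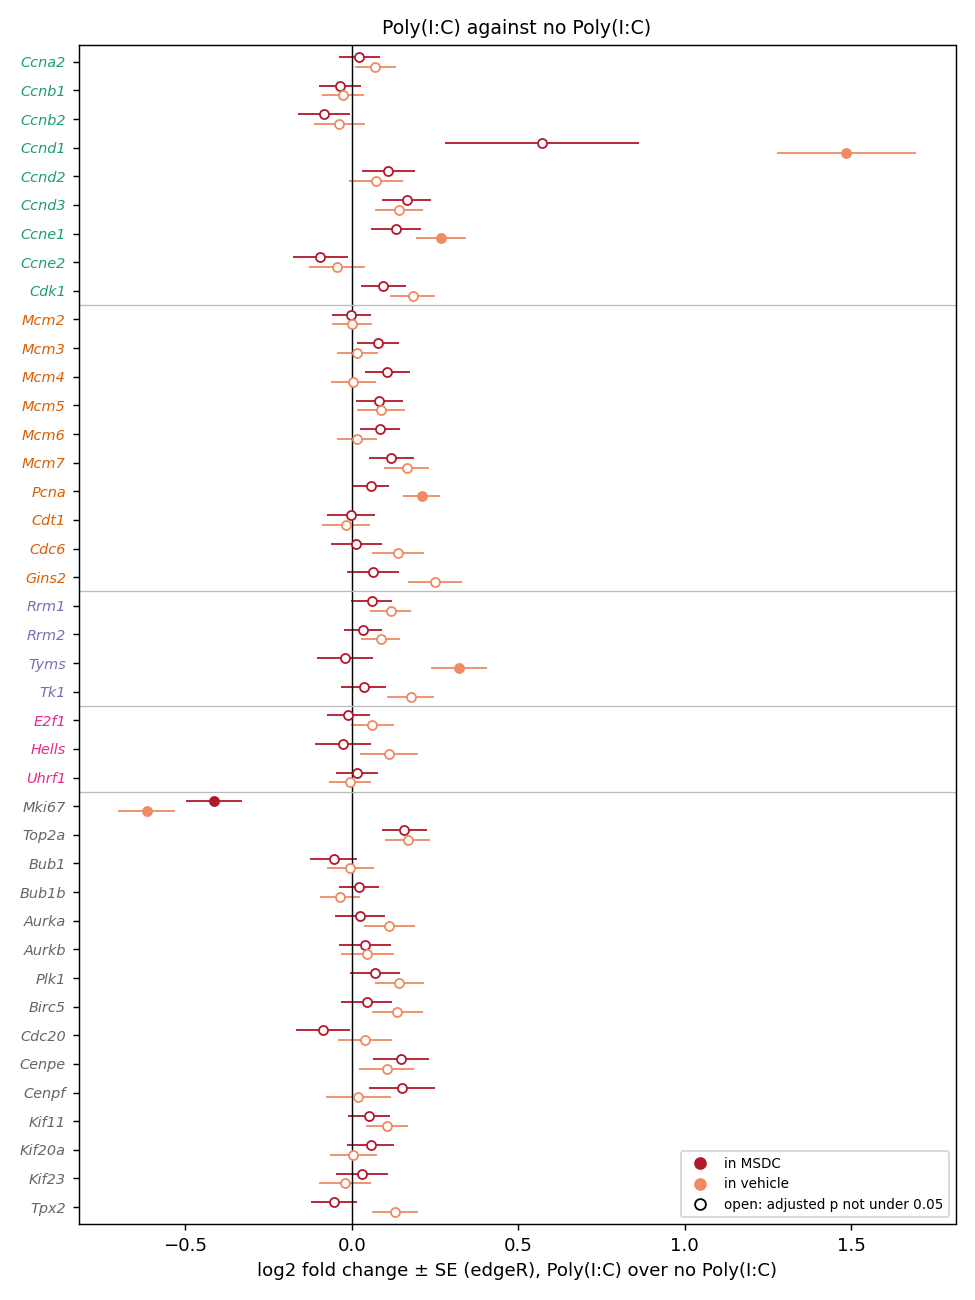
Log2 fold change of each gene with Poly(I:C) over no Poly(I:C), with its standard error (bars) derived from the edgeR test, in MSDC (dark red, above) and in vehicle (orange, below). Filled points have an adjusted p under 0.05. Mki67 stands at -0.41 and -0.62 and Ccnd1 at 0.57 and 1.49, while the other genes lie between -0.09 and 0.32.

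The third question was whether MSDC changed the response of these genes to Poly(I:C). By edgeR 0 of 41 members passed the interaction test in either direction (0.224% of all genes tested did), 2 had an unadjusted p under 0.05, and DESeq2 and limma on TPM also called 0. The 2 were Ccnd1, at -0.91 (SE 0.36, adjusted p = 0.699), and Tyms, at -0.34 (SE 0.12, adjusted p = 0.568). The member median was -0.05 against 0.01 for all genes. The 95% interval of the interaction was -1.69 to -0.14 for Ccnd1, -0.21 to 0.28 for Ccnd2 and -0.20 to 0.24 for Ccnd3.

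Of the genes listed as inhibitors of cyclin-dependent kinases, 8 were in the table and 7 were tested. Cdkn1a, which encodes p21, a p53 target, had 65.6 and 62.5 TPM in Poly(I:C)+MSDC cells, 113 and 126 TPM in Poly(I:C)+vehicle cells, 61.5 and 59.5 TPM in MSDC cells, and 87.6 and 81.3 TPM in vehicle cells. It was the 1 inhibitor called higher with Poly(I:C) in vehicle, at 0.56 (SE 0.07, adjusted p = 4.39e-05), and was not called in MSDC, at 0.09 (SE 0.07, adjusted p = 0.636). With MSDC it was lower, at -0.93 (SE 0.07, adjusted p = 7.79e-08) with Poly(I:C) and -0.46 (SE 0.07, adjusted p = 0.00018) without, and these 3 calls held under all 17 alternatives. The interaction was -0.47 (SE 0.10, adjusted p = 0.102), which does not pass the test.

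Cdkn2d, encoding p19INK4d, was also lower with MSDC in Poly(I:C) cells, at -0.48 (SE 0.11, adjusted p = 0.00286), and at -0.27 (SE 0.11, adjusted p = 0.0791) without. Cdkn2a, the Ink4a and Arf locus, had 1.67 and 2.06 TPM in Poly(I:C)+MSDC cells, against 3.44 and 4.14 TPM in Poly(I:C)+vehicle cells, at -1.04 (SE 0.34, adjusted p = 0.0316). That call was lost without any 1 of the 4 Poly(I:C) libraries, at -1.20 to -0.90. Cdkn1b (p27), Cdkn2b, Cdkn2c and Cdkn3 were called in no comparison, and Cdkn1c was below the filter, at 0.04 to 0.41 TPM.

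Among the 12 interphase kinases, phosphatases and pocket proteins, 6 were called higher and 1 lower by MSDC with Poly(I:C) (12.5 and 13.6% of all genes tested), and 4 higher and 1 lower without (11.1 and 12.4%). Rb1, the pocket protein that restrains E2F, had 47.8 and 49.1 TPM in Poly(I:C)+MSDC cells, 31.7 and 31.6 TPM in Poly(I:C)+vehicle cells, 53.4 and 51.9 TPM in MSDC cells, and 37.2 and 34.9 TPM in vehicle cells. Its MSDC libraries all lay above the others, at 0.59 (SE 0.07, adjusted p = 4.17e-06) and 0.58 (SE 0.06, adjusted p = 4.54e-06). Cdk4, a kinase partner of the D cyclins, was the gene called lower in both, at -0.29 (SE 0.06, adjusted p = 0.00246) and -0.25 (SE 0.06, adjusted p = 0.00799), with the second lost without MSDC replicate 1 or 2, at -0.26 in both fits. Cdk6, the other partner, was called higher with Poly(I:C), at 11.9 and 12.2 TPM in Poly(I:C)+MSDC cells against 9.87 and 10.2 TPM in Poly(I:C)+vehicle cells. That call was lost in 6 of the 8 fits without 1 library, at 0.22 to 0.26. Cdk2 and Pkmyt1 were called higher in both settings, and Cdc25a with Poly(I:C). Over the 19 tested E2F, MYC and mitotic transcription factor genes, MSDC gave 3 higher and 5 lower with Poly(I:C) (12.5 and 13.6% of all genes tested) and 1 higher and 2 lower without (11.1 and 12.4%), so that the counts other than the 5 lower were near or below the shares of all genes. Mxd1, a MAX partner that opposes MYC, was lower in both, at -0.41 (SE 0.10, adjusted p = 0.00541) and -0.50 (SE 0.10, adjusted p = 0.00153), the first lost without Poly(I:C)+vehicle replicate 2 (-0.32) or Poly(I:C)+MSDC replicate 1 (-0.39). Mxd4 was called higher with Poly(I:C), at 33.5 and 44.0 TPM in Poly(I:C)+MSDC cells against 29.6 and 30.3 TPM in Poly(I:C)+vehicle cells. That call was lost in 5 of the 8 fits without 1 library. Max was called lower and Foxm1 higher in both settings. In unstimulated cells both lost the call in 7 of these 8 fits, and with Poly(I:C) Foxm1 lost it in 6.

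Among 43 other DNA replication genes, 6 were called higher and 1 lower by MSDC with Poly(I:C), and 10 higher without. The first counts are near or below the 12.5 and 13.6% of all genes called higher and lower, while the 10 stand against 11.1% of all genes. Their medians were 0.07 and 0.15. Lig1, the ligase that joins Okazaki fragments, was at 0.43 (SE 0.07, adjusted p = 0.000138) and 0.33 (SE 0.07, adjusted p = 0.00153), the second lost without MSDC replicate 1 (0.25, adjusted p = 0.056). Pold3, a subunit of DNA polymerase delta, was called in both, at 0.36 (SE 0.07, adjusted p = 0.00176) and 0.38 (SE 0.07, adjusted p = 0.00127). With Poly(I:C), 5 of the 43 were called higher in vehicle and 2 in MSDC, against 7.52 and 4.82% of all genes. Timeless, a protein of the replication fork, had 19.4 and 20.0 TPM in Poly(I:C)+MSDC cells, 19.4 and 18.3 TPM in Poly(I:C)+vehicle cells, 12.9 and 12.3 TPM in MSDC cells, and 11.9 and 12.1 TPM in vehicle cells. Every Poly(I:C) library lay above every unstimulated one, at 0.65 (SE 0.08, adjusted p = 2.53e-05) in MSDC and 0.71 (SE 0.08, adjusted p = 7.27e-06) in vehicle. Mcm10, which helps to start the helicase, was at 0.37 (SE 0.07, adjusted p = 0.00516) and 0.39 (SE 0.07, adjusted p = 0.00222). The first was lost without MSDC replicate 2 (0.33) or Poly(I:C)+MSDC replicate 2 (0.36), and the second without Poly(I:C)+vehicle replicate 1 (0.32).

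Among 50 other mitosis and cytokinesis genes, 4 were called higher and 3 lower by MSDC with Poly(I:C), and 6 higher and 1 lower without. These counts are near or below the shares of all genes called (12.5 and 13.6% with Poly(I:C), 11.1 and 12.4% without). Dlgap5, a spindle protein, was higher in both, at 0.44 (SE 0.08, adjusted p = 0.000937) and 0.33 (SE 0.08, adjusted p = 0.00741), the second lost without vehicle replicate 1 (0.23) or MSDC replicate 2 (0.28). Cenpa, the centromeric histone, was lower in both, at -0.36 (SE 0.07, adjusted p = 0.00133) and -0.32 (SE 0.07, adjusted p = 0.004). With Poly(I:C), 3 of the 50 were called higher in vehicle and 1 in MSDC, below the 7.52 and 4.82% of all genes. Of 15 S phase checkpoint and homologous recombination genes, MSDC gave 4 higher with Poly(I:C) and 2 without, none lower, and Poly(I:C) none in either drug group. Pttg1, which encodes securin, the inhibitor of separase, had 82.3 and 81.2 TPM in Poly(I:C)+MSDC cells, 104 and 96.5 TPM in Poly(I:C)+vehicle cells, 43.4 and 46.0 TPM in MSDC cells, and 43.2 and 45.4 TPM in vehicle cells. It had the highest log2 fold change of the 50 in both drug groups, at 0.88 (SE 0.09, adjusted p = 4.93e-06) in MSDC and 1.22 (SE 0.09, adjusted p = 6.38e-08) in vehicle, and its Poly(I:C) libraries did not overlap with the unstimulated ones.

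**Figure D5:**
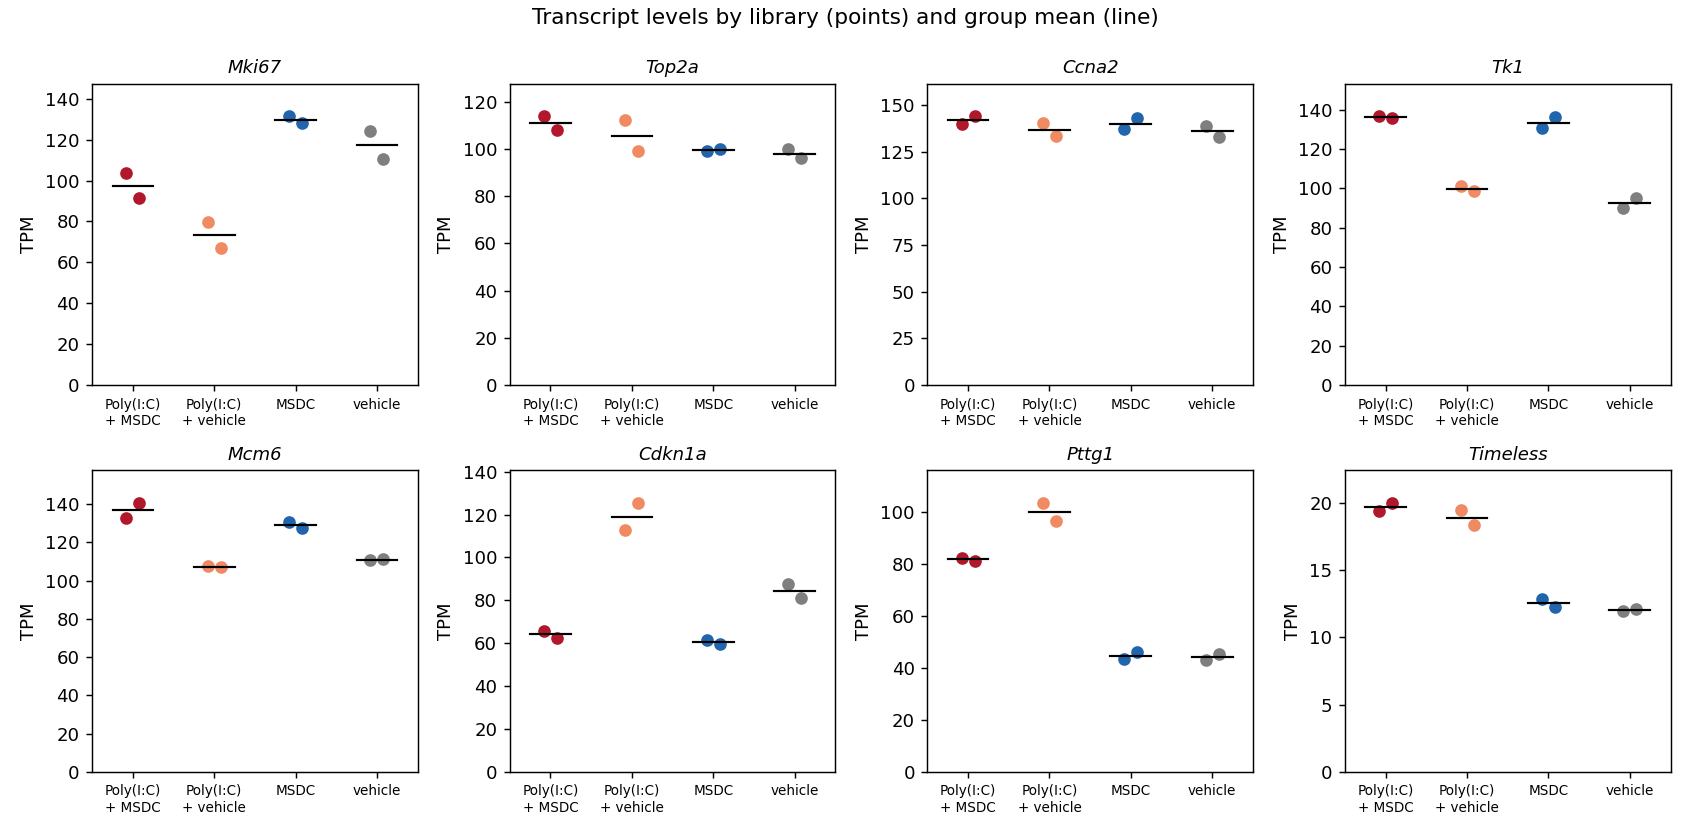
TPM of Mki67, Top2a, Ccna2, Tk1, Mcm6, Cdkn1a, Pttg1 and Timeless in each library (points), with the group mean as a line and each axis starting at 0. Tk1 and Mcm6 are higher in the MSDC groups, Cdkn1a is highest in Poly(I:C)+vehicle cells at 113 and 126 TPM, Pttg1 and Timeless are higher in the Poly(I:C) groups, and Mki67 is lower in them.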

How the data were processed

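The authors deposited 1 table that gives, per gene and sample, an expected count (a read count per the file headers, partly not whole), an FPKM and a TPM. The TPM values, named so per the file headers, were scaled by the authors to a total of 1000000 per library and are used here for levels. The FPKM values deposited beside them were not used. The sources used here do not say how the expected counts were made. Per the submitters' processing notes, Bowtie2 2.3.4, TopHat2 2.1.1 and Cuffdiff were used with GRCm38 (mm10), in roles not stated.

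Of 15521 gene identifiers, 15419 were found in RefSeq, and 23 symbols turned into dates were repaired from them. Between 5.95 and 7.19% of values per library were not whole, and all counts were rounded. edgeR 4.0.16 (R 4.3.3) was run with filterByExpr, TMM factors of 0.985 to 1.027 and 1 quasi-likelihood model with 4 group terms and 4 residual degrees of freedom. The test was two-sided, with Benjamini-Hochberg adjustment within each comparison, and was tested on simulated data. The alternatives were other scalings and filters, DESeq2 1.42.0, limma 3.58.1 on log2(TPM + 1) and log2(TPM + 0.1), a fit of 2 groups alone, a replicate block, and leaving out each library. Within a group, libraries correlated across genes at 0.9899 or more and differed by more than counting noise, so all 8 were kept. Genes named are all 41 members, all CDK inhibitors, and up to 4 genes with the smallest p per other list and comparison. The members and lists were chosen with earlier results of these data known.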

Additional observations from a re-analysis of the deposited data

How the results depend on the processing

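No call of a member reversed under any of the 17 alternatives. Against 4 members called higher with Poly(I:C) in vehicle, scaling by library totals gave 2, limma on log2(TPM + 1) gave 1, limma on log2(TPM + 0.1) gave 1 and a fit of only the 2 groups gave 1. Leaving out 1 library gave 1 to 4 there, 0 to 1 members lower with Poly(I:C) in MSDC (main 1), 6 to 19 higher with MSDC without Poly(I:C) (main 16), and 9 to 18 higher with MSDC with Poly(I:C) (main 16). The counts of members lower with MSDC stayed at 2 in every alternative. Scaling by library totals moved the median of all genes by -0.05 with Poly(I:C) in vehicle. Replicate numbers did not pair the samples (correlations of -0.03 to 0.03 over 6 pairs of groups). With a replicate block, 4 members were called higher and 1 lower with Poly(I:C) in vehicle, 0 and 1 in MSDC, 16 and 2 with MSDC without Poly(I:C), 16 and 2 with it, and 0 and 0 in the interaction. With 2 libraries per group, small changes such as those of most replication genes are near the limit of the test, and where a group is left with 1 library, that library is assumed to vary like the others.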

Other observations

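Of 14 quiescence and macrophage growth control genes, 2 were called higher and 5 lower by MSDC with Poly(I:C), and 2 higher and 6 lower without. Over all genes tested, MSDC gave 12.5% higher and 13.6% lower with Poly(I:C), and 11.1% higher and 12.4% lower without, so the 2 higher are near that share. Csf1r, the receptor for the growth factor CSF1, had 116 and 114 TPM in Poly(I:C)+MSDC cells, 214 and 214 TPM in Poly(I:C)+vehicle cells, 119 and 106 TPM in MSDC cells, and 239 and 211 TPM in vehicle cells, and its MSDC libraries all lay below the others, at -0.92 (SE 0.07, adjusted p = 3.93e-08) with Poly(I:C) and -0.97 (SE 0.07, adjusted p = 2.45e-08) without by edgeR. Bhlhe40, a repressor linked to the renewal of alveolar macrophages in mice, had 224 and 228 TPM in Poly(I:C)+MSDC cells, 421 and 436 TPM in Poly(I:C)+vehicle cells, 255 and 249 TPM in MSDC cells, and 485 and 494 TPM in vehicle cells, at -0.96 (SE 0.06, adjusted p = 2.82e-09) and -0.93 (SE 0.06, adjusted p = 4.42e-09). Klf2, linked to quiescence in lymphocytes, was higher with MSDC, at 0.91 (SE 0.14, adjusted p = 0.000133) and 0.90 (SE 0.14, adjusted p = 0.000104). Btg1, an antiproliferative protein, was lower, at -0.54 (SE 0.06, adjusted p = 2.04e-06) and -0.40 (SE 0.06, adjusted p = 5.97e-05).

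Of 17 genes listed as p53 itself (Trp53) or its targets, 16 were tested. MSDC gave 2 higher and 5 lower with Poly(I:C) and 2 higher and 1 lower without. Against the same shares of all genes, all but the 5 lower are near or below them. Among those 5 were Fas, Zmat3, Gadd45a and Mdm2. Fas had 7.48 and 7.78 TPM in Poly(I:C)+MSDC cells against 14.5 and 11.6 TPM in Poly(I:C)+vehicle cells. Its call held in each fit without 1 library, at -0.98 to -0.61, while that of Mdm2 was lost in 6 of them, at -0.25 to -0.22. Phlda3, an AKT inhibitor, was higher in both, with 166 and 176 TPM in Poly(I:C)+MSDC cells, 84.6 and 79.7 TPM in Poly(I:C)+vehicle cells, 193 and 193 TPM in MSDC cells, and 91.8 and 101 TPM in vehicle cells, at 1.03 (SE 0.07, adjusted p = 3.51e-08) and 1.02 (SE 0.07, adjusted p = 3.64e-08). Cdkn1a, a target of the same factor, was lower in both, as given above. With Poly(I:C) in vehicle 3 of the 16 were called higher (7.52% of all genes tested were). These were Trp53 itself, Btg2, and Mdm2, the ligase that degrades p53, at 0.38 (SE 0.08, adjusted p = 0.00365).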
